A study of Rattus norvegicus with 8 samples.

Results

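The Rab genes encode small GTPases that act as molecular switches of membrane traffic. A Rab protein is loaded with GTP by an exchange factor, binds effectors on the membrane of a given compartment, is switched off when a GTPase-activating protein drives hydrolysis, and is lifted off the membrane by a GDP dissociation inhibitor. Each member marks particular steps, such as synaptic vesicle release, transport between the endoplasmic reticulum (ER) and the Golgi, endosome fusion and recycling, or delivery to lysosomes. In the striatum, the input nucleus of the basal ganglia, Rab3a is best known as the Rab of synaptic vesicles. The members described here were chosen by gene symbol, as Rab followed by a number and at most a letter or digit, and 55 of the 17337 genes in the count data met this rule. Symbols of effectors and interacting proteins were left out. The symbol uses no measured value, but the family was taken up because Rab9a was already known to be lower in the METH rats of these same data, so the values of Rab9a are a description and not independent support.

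Striatal mRNA was sequenced in 8 male wild-type Sprague-Dawley rats, 4 of which had self-administered METH and 4 saline. METH was taken intravenously at 0.05 mg/kg per infusion in sessions of 2 h daily over 16 days, and saline rats followed the same schedule. Rats of both groups had been trained with food pellets, had received a jugular catheter, and were anesthetized with ketamine and xylazine before brain sampling. The methods also describe the choice, for plasma sampling, of 4 rats per group with stable lever pressing. Whether these are the 8 sequenced rats is not stated. The total count lay between 18135939 and 21211920 reads per rat. At this depth 3 counts correspond to 0.141 to 0.165 CPM (counts scaled by library size to a common total), the smallest level taken as detected. The 55 Rab genes together held 0.629% to 0.638% of the counts in saline rats and 0.610% to 0.636% in METH rats, with METH replicate 3 the lowest. METH replicate 3 also stood apart on the first principal component of all genes tested (39.5, against 0.257 to 5.29 in the other METH rats and -24.6 to -4.17 in saline rats). All 9 markers of striatal projection neurons listed to check the tissue were detected, with saline means from 356 CPM (Pdyn) to 7169 CPM (Ppp1r1b).

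The promoter of Rab9a, the member on which the comparison turned, is shown beside that of its paralog Rab9b, so that the sequence ahead of both genes can be compared. Both windows hold 250 bases before and 50 bases after the annotated start, as listed by RefSeq for assembly GRCr8 (the reads were counted on rn6). Capitals mark the GC box, searched as GGGCGG on both strands, the letters that factors of the Sp family bind. The Rab9a window is chrX:31609839-31610138 on the + strand and the Rab9b window is chrX:105023823-105024122 on the - strand.
Rab9a: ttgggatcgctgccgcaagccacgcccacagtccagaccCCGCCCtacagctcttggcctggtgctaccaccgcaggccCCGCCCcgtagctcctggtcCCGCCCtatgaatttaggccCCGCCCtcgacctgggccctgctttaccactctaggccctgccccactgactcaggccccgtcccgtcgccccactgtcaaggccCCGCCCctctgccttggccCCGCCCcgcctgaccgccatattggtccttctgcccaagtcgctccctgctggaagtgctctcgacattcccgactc
Rab9b: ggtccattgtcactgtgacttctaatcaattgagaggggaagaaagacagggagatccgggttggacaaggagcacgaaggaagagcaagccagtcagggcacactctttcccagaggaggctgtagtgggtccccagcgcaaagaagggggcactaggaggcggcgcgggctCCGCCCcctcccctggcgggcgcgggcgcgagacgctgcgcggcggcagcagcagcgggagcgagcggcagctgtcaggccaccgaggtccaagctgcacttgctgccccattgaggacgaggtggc
The Rab9a window held 6 GC boxes and that of Rab9b held 1. Among 33469 rat promoter windows of the same length, of all gene types, 33.1% held at least 1 GC box and 1.15% held at least 6. Of the 46 windows that matched 45 of the Rab genes (Rab30 has 2), 78.3% held at least 1. The G and C content was 68.0% for Rab9a and 65.3% for Rab9b, with medians of 63.3% over the Rab windows and 51.7% over all windows. The cAMP response element (TGACGTCA) and the E-box that lysosomal genes share (CACGTG) were found in neither the Rab9a nor the Rab9b window, while 1.83% and 6.42% of all windows held them. A match is a description of letters and not of binding.

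Of the 55 Rab genes, 51 had enough counts to be tested and 50 of these had a mean log2 CPM above 1. Rab17 was at 0 counts in every rat, which allows a level of up to 0.141 to 0.165 CPM per rat. Rab19 had at most 4 counts, Rab25 had 1 count in all and Rab38, a Rab of pigment granules and other lysosome-related organelles, had 2 to 11 counts per rat. Rab20 was tested, but its saline mean of 1.35 ± 0.369 CPM (SD, n = 4) lay below the level needed for a call. RefSeq lists 58 rat Rab genes by the same symbol rule, and Rab37, Rab42 and Rab44 were not analysed here.

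In METH rats compared with saline rats, Rab9a fell and no other Rab gene was called. A gene was called at a false discovery rate (FDR) below 0.05 over the 12014 genes tested, with a mean log2 CPM above 1, and the test was the edgeR quasi-likelihood test. This rule called 0.516% of all genes tested, and 0.0666% of them as lower in METH rats, against 1 of 51 Rab genes (1.96%). The 0.0666% stands for 8 genes, a number that was 2 without saline replicate 2, 4 without METH replicate 1, 39 by the edgeR likelihood ratio test and 48 by DESeq2. No Rab gene was called higher. At an unadjusted p below 0.05 there were 4 Rab genes (7.84%), Rab9a and Rab9b lower and Rab26 and Rab24 higher, against 11.1% of all genes tested. The groups were fully separated for Rab9a and Rab22a, 2 of 51 genes (3.92%), against 6.39% of all genes tested. The median log2 fold change of the 51 genes was -0.0045, close to the -0.0055 of all genes. The sign of the fold change was negative for 27 of 51 Rab genes (52.9%), against 51.4% of all genes tested. The number of Rab genes with a negative sign moved between 24, without METH replicate 3, and 33, with scaling by total counts. The absolute log2 fold change was below 0.25 for 43 of the 51 genes (84.3%), against 78.0% of all genes tested. In dissected tissue, fewer cells of a type and less RNA per cell cannot be told apart.

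**Figure D1:**
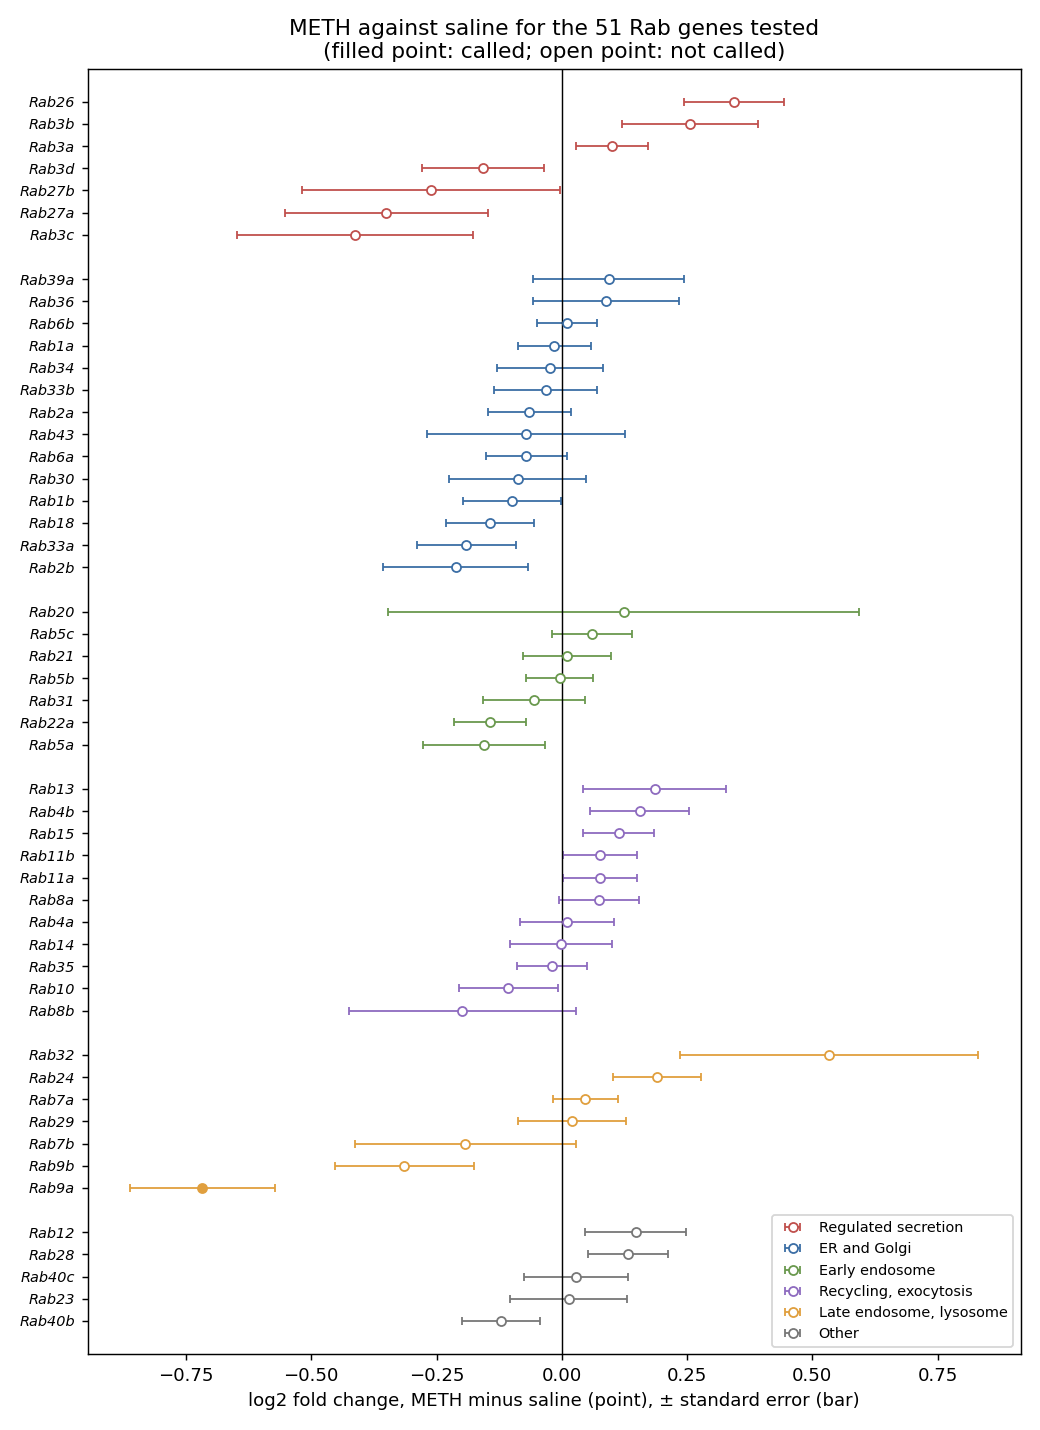
The log2 fold change of each of the 51 Rab genes tested (METH minus saline) with its standard error, grouped by the membrane step at which the protein acts. The filled point, Rab9a at -0.72, is the only called gene, and the genes of ER and Golgi transport, early endosomes and recycling all lie within 0.25 of 0.

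Rab9a directs transport from late endosomes back to the trans-Golgi network, the route by which mannose 6-phosphate receptors are returned after they have delivered lysosomal enzymes. Its counts were 390, 341, 368 and 409 in saline replicates 1 to 4 and 228, 260, 156 and 257 in METH replicates 1 to 4. Scaled, these were 21.4, 17.0, 17.8 and 19.3 CPM in saline rats and 11.2, 12.4, 8.81 and 13.5 CPM in METH rats. The highest METH rat lay below the lowest saline rat, and METH replicate 3 was the lowest of all. The saline mean was 18.9 ± 1.93 CPM and the METH mean 11.5 ± 2.03 CPM (both SD, n = 4). This gave a log2 fold change of -0.72 with a standard error (SE) of 0.14, or a METH level of 0.608 times that of saline. The FDR was 0.0473 by the edgeR quasi-likelihood test, just under the threshold, and the Rab gene next in order, Rab26, had 0.219. The exact permutation test over the 70 ways to label 4 of 8 rats gave a two-sided p of 0.0286, the smallest it can give. Full separation of the groups fixes this value, so it adds nothing to the separation.

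The fold change of Rab9a was negative in every fit tried, but the call was not stable. With 1 rat left out, the log2 fold change stayed between -0.81 and -0.61 while the call was lost in 7 of 8 fits by the same edgeR test. The FDR was 0.137, 0.0825, 0.0697 and 0.142 without saline replicates 1 to 4, and 0.0928, 0.0712 and 0.0992 without METH replicates 1 to 3. It was 0.0458 without METH replicate 4, where Rab9a was called. The likelihood ratio test of edgeR gave 0.00132 and the Wald test of DESeq2 gave 0.000847 with all rats, while the edgeR quasi-likelihood fit with a replicate block gave 0.118 and lost the call.

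**Figure D2:**
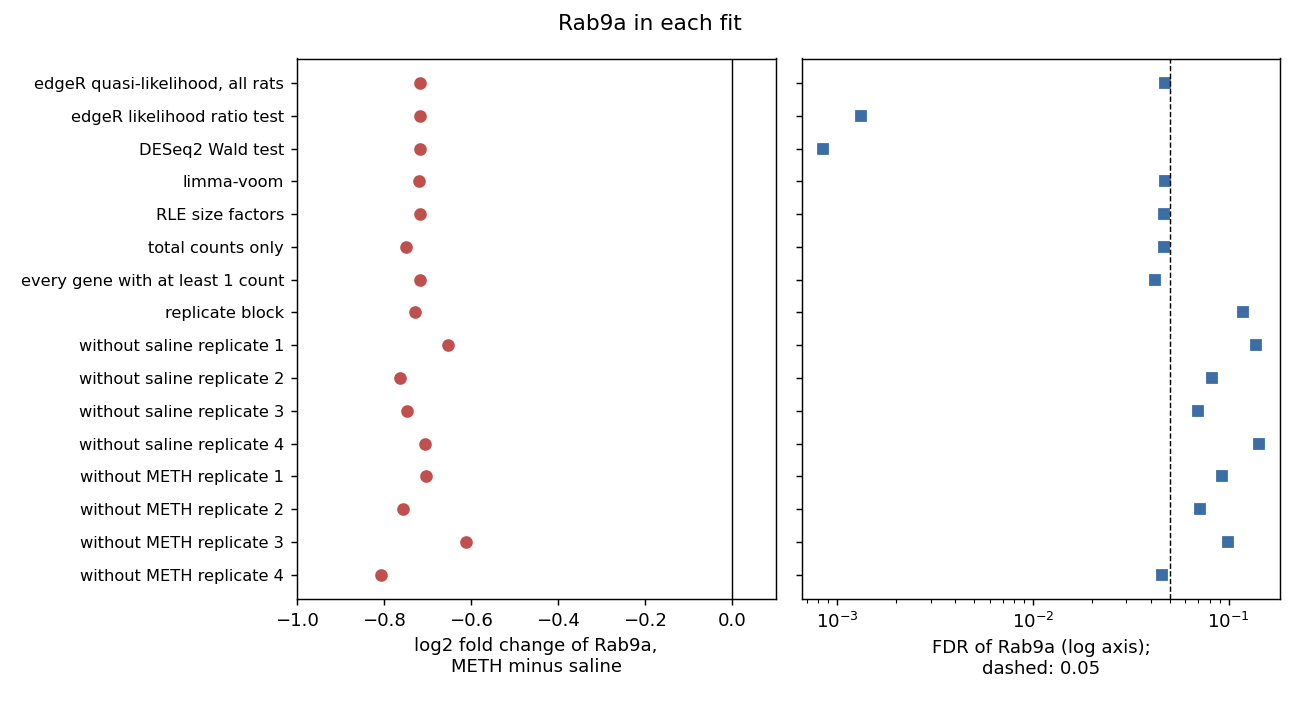
The log2 fold change of Rab9a (left, METH minus saline) and its FDR (right, log axis, dashed line at 0.05) in the edgeR quasi-likelihood fit of all rats and in each alternative fit. The fold change lies between -0.81 and -0.61 throughout, while the FDR moves across the threshold.

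In the GRCr8 annotation the gene model of Rab9a overlaps that of Trappc2, a subunit of the TRAPP tethering complex, on the opposite strand. The library kit does not mark strand, so reads in the overlap cannot be assigned between them. Trappc2 averaged 50.6 ± 5.26 CPM with saline and 45.4 ± 6.70 CPM with METH (both SD, n = 4), a log2 fold change of -0.16 (SE 0.11, FDR = 0.622 by edgeR). The next listed gene beyond Trappc2 is Ofd1, which encodes a centriole protein and had 14.2 to 16.9 CPM in saline rats and 8.75 to 13.8 CPM in METH rats without overlap, a log2 fold change of -0.42 (FDR = 0.311 by edgeR). On the other side, Egfl6 had a log2 fold change of -0.29 (SE 0.17) and was not called. Tceanc, with only 2 to 15 counts per rat, had -0.32 (SE 0.58) and was not called either. Whether the neighbours bear on the values of Rab9a was not tested. Rab3a, Rab5a and Rab6a are the other Rab genes whose models overlap a gene with a row in the count data.

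Rab9b, the paralog of Rab9a and also on the X chromosome, was at 55.1, 43.9, 62.6 and 48.5 CPM in saline rats and at 38.1, 39.2, 37.1 and 54.7 CPM in METH rats. METH replicates 1 to 3 lay below all saline rats, while METH replicate 4 lay within their range. The log2 fold change was -0.31 (SE 0.14), with an unadjusted p of 0.0398 and an FDR of 0.428 over all genes tested by edgeR, so that Rab9b was not called. Other genes of the Rab9 route were measured as well. Igf2r, the large mannose 6-phosphate receptor, had a log2 fold change of -0.11, M6pr, the small one, of -0.07, and the golgin Gcc2 of -0.20. Rabepk had -0.03 and Rhobtb3 0.01, both known Rab9 effectors. None of these 5 genes was called, and their lowest FDR by edgeR was 0.475, that of Gcc2. Plin3, another listed Rab9 partner, had no row in the count data and could not be examined.

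Cell-type markers were summed per rat, since Rab genes are used by all cell types. The 12 microglial markers summed to 573 to 664 CPM in saline rats and 511 to 590 CPM in METH rats. Of the 12, 2 (16.7%), Cx3cr1 and Mpeg1, were called lower, against 0.0666% of all genes tested. An unadjusted p below 0.05 by edgeR was reached by 3 of the 12 (25%), all lower, against 11.1% of all genes tested. Of the 10 not called, C1qa, C1qb and C1qc had log2 fold changes of 0.11, 0.09 and 0.11, and the other 7 lay between -0.30 and -0.04. The 5 pan-neuronal markers summed to 2149 to 2647 CPM in saline rats and to 1701 to 2142 CPM in METH rats, without overlap, though none was called. Snap25 made the largest part of the sum (means of 1265 CPM with saline and 883 CPM with METH). It was the only 1 of the 5 (20%) whose groups did not overlap, against 6.39% of all genes tested. Its log2 fold change was -0.52 (FDR = 0.0632 by edgeR), and Map2 and Syt1 had -0.49 and -0.23. Rbfox3 and Tubb3 had log2 fold changes above 0. Snap25 and Map2, 2 of the 5 (40%), had an unadjusted p below 0.05 by edgeR, against 11.1% of all genes tested. The 9 markers of striatal projection neurons summed to 14374 to 15159 CPM and 15207 to 19247 CPM, again without overlap but in the other direction. None of the 9 was called, and Ppp1r1b made the largest part of the sum (means of 7169 CPM with saline and 8499 CPM with METH). The log2 fold change was above 0 for 7 of the 9 and below 0 for Drd1 (-0.03) and Adora2a (-0.0099). Ppp1r1b, Pdyn and Drd2, 3 of the 9 (33.3%), had an unadjusted p below 0.05 by edgeR, against 11.1% of all genes tested. The sums overlapped between groups for the astrocyte markers (3392 to 4064 against 3391 to 4266 CPM) and the oligodendrocyte markers (13262 to 19086 against 12500 to 18616 CPM). They also overlapped for the 5 endothelial markers with a row (388 to 558 against 384 to 414 CPM) and the 2 blood markers with a row (117 to 225 against 112 to 208 CPM). All 5 endothelial markers had negative log2 fold changes, with a median of -0.21, and none was called. At an unadjusted p below 0.05 by edgeR there were 3 of the 5 (60%), against 11.1% of all genes tested. The groups did not overlap for 2 of the 5 (40%, against 6.39% of all genes tested), Tek (-0.34) and Ocln (-0.41). The 5 choroid plexus markers summed to 3.95 to 5.55 CPM in saline rats and 5.62 to 8.91 CPM in METH rats, without overlap. Of these markers, 1 was below 0.5 CPM in every rat. The 2 that were tested, Folr1 and Clic6, had log2 fold changes of 0.45 and 0.79, and neither was called. Every microglial and neuronal marker exceeded 0.5 CPM in at least 1 rat. The part of these markers in the values of Rab9a and of the other Rab genes was not tested.

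**Figure D3:**
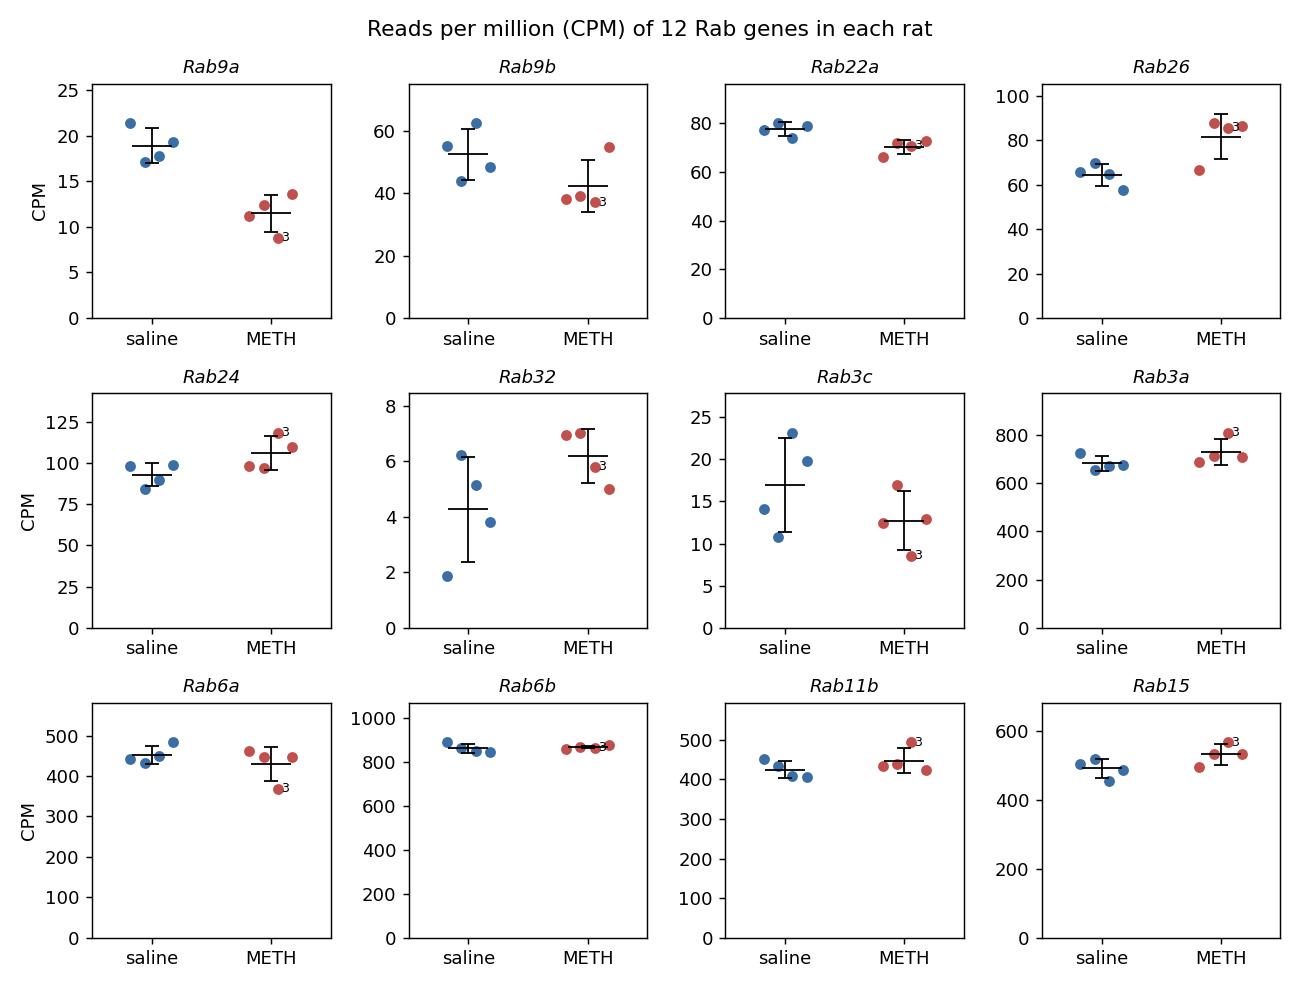
CPM of 12 Rab genes in each rat, with 1 point per rat in replicate order from left to right, and the mean and SD of the 4 rats of each group in black. METH replicate 3 is marked 3. The groups do not overlap for Rab9a and Rab22a, and the 5 panels from Rab3a to Rab15 hold the Rab genes with the most reads.

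The other Rab genes of late endosomes and lysosomes had fold changes of both signs, and none was called. Rab24, an atypical Rab tied to autophagy, was at 98.2, 84.5, 89.7 and 99.1 CPM in saline rats and 98.4, 96.9, 118 and 110.0 CPM in METH rats, and METH replicates 3 and 4 lay above all saline rats. Its log2 fold change was 0.19 (SE 0.09, unadjusted p = 0.0490, FDR = 0.443 by edgeR). Rab32, which serves lysosome-related organelles and mitochondria, had the highest log2 fold change of the family, 0.53, but with a standard error of 0.30 and an FDR of 0.509 by edgeR. Its counts were 34, 125, 107 and 81 in saline rats and 142, 148, 103 and 95 in METH rats. Saline replicate 1 was the lowest rat, and the groups overlapped. Without it the log2 fold change of Rab32 was 0.29, below the 0.35 of Rab26. Rab7a, which drives fusion of late endosomes with lysosomes, differed little, with means of 355 ± 13.8 CPM for saline and 367 ± 6.16 CPM for METH (both SD, n = 4) and a log2 fold change of 0.05 (SE 0.06). Rab29, a partner of the kinase Lrrk2, had a log2 fold change of 0.02, and Rab7b, a Rab of late endosome to Golgi transport, had -0.19 (SE 0.22).

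The 7 Rab genes of regulated secretion had a median absolute log2 fold change of 0.26, against 0.10 over all 51 Rab genes and 0.12 over all genes tested. Of the 7, 3 had a positive and 4 a negative log2 fold change, and these numbers were the same in every fit. The median SD of log2 CPM among saline rats was also the highest of the groups here, 0.25 against 0.12 over all 51 Rab genes. Rab26, which acts on secretory granules and synaptic vesicles, was at 65.6, 69.7, 64.9 and 57.5 CPM in saline rats and at 66.5, 88.0, 85.7 and 86.7 CPM in METH rats. METH replicates 2 to 4 lay above all saline rats and METH replicate 1 lay among them. The log2 fold change was 0.34 (SE 0.10), with an unadjusted p of 0.0043 and an FDR of 0.219 by edgeR, which was 0.0504 without METH replicate 1 and up to 0.456 without another rat.

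The 4 paralogs of Rab3, the Rab of synaptic vesicles and secretory granules, differed in the sign of their fold change. Rab3a was at 724, 652, 670 and 675 CPM in saline rats and at 688, 712, 808 and 707 CPM in METH rats, with a log2 fold change of 0.10 (SE 0.07). Rab3b had a log2 fold change of 0.26 (SE 0.14, FDR = 0.489 by edgeR), and METH replicate 3 was the highest of the 8 rats for both genes. Rab3c had the lowest log2 fold change of the family after Rab9a, -0.41 (SE 0.24, FDR = 0.516 by edgeR). Its levels were 14.1, 10.8, 23.2 and 19.8 CPM in saline rats and 12.4, 17.0, 8.53 and 13.0 CPM in METH rats, so that the groups overlapped and the spread within each was wide. Rab3d had -0.16. Rab27a and Rab27b, which dock secretory granules at the plasma membrane, had log2 fold changes of -0.35 (SE 0.20) and -0.26 (SE 0.26), and METH replicate 3 was the lowest rat for Rab3c and both Rab27 genes. None of these 6 genes was called, and several fold changes came closer to no change when 1 rat was left out, without a change of sign. Without saline replicate 3 the log2 fold change was -0.04 for Rab27b, -0.23 for Rab3c and -0.08 for Rab3d. Without METH replicate 3 it was -0.13 for Rab27b, -0.26 for Rab3c and 0.10 for Rab3b, and without saline replicate 2 it was -0.20 for Rab27a.

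**Figure D4:**
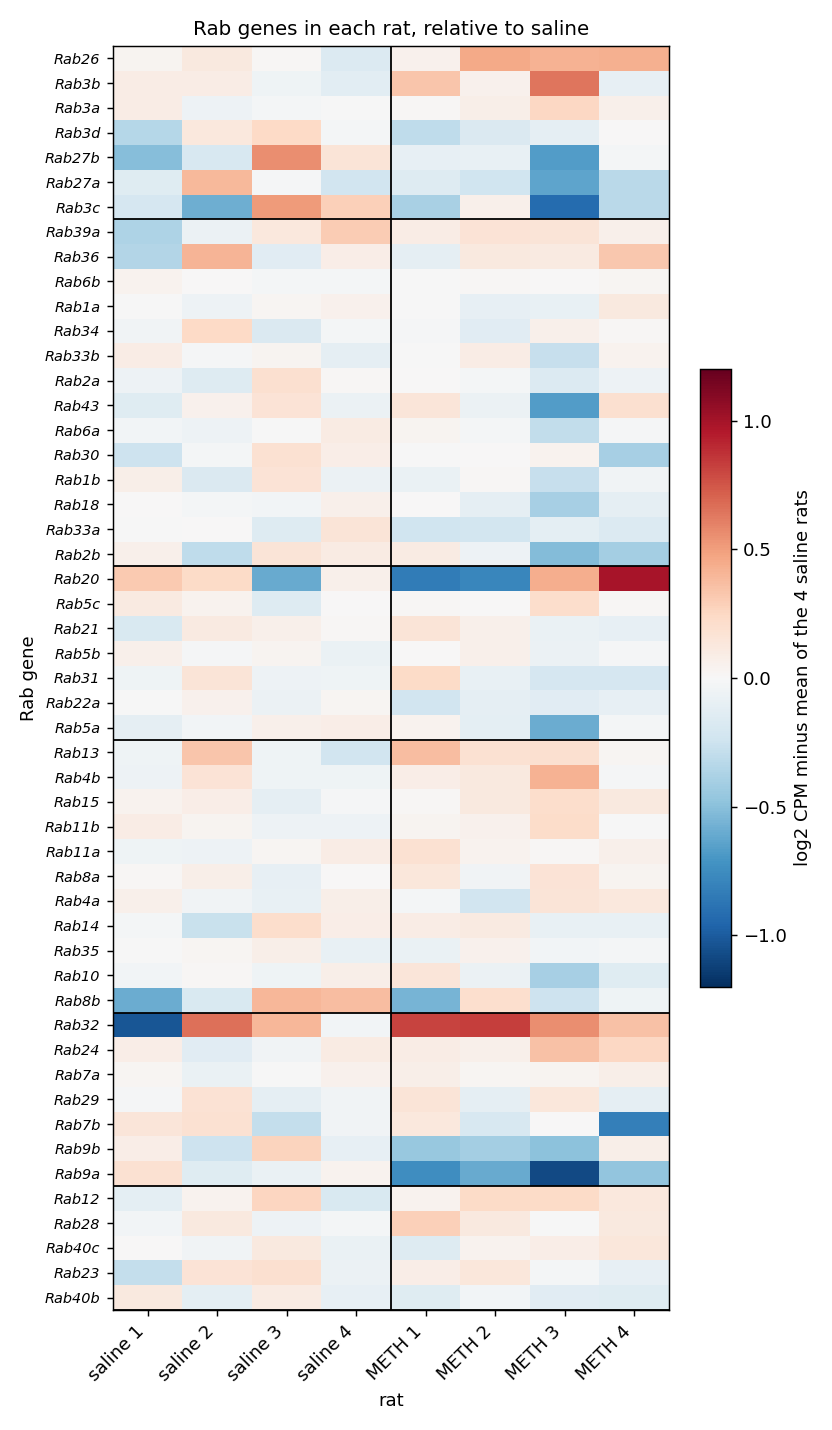
Log2 CPM of the 51 Rab genes tested in each rat minus the mean of the 4 saline rats, in the same group order as the fold changes, with red above and blue below the saline mean. Rab9a is below the saline mean in all 4 METH rats, and METH replicate 3 is the lowest of the 8 rats for 15 genes.

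The Rab genes of ER and Golgi transport differed little between the groups. All 14 tested had an absolute log2 fold change below 0.25, and the median log2 fold change was -0.07. A negative sign was seen for 11 of the 14 (78.6%), against 51.4% of all genes tested. The number of negative signs ranged from 8, without METH replicate 3, to 13 over the fits. METH replicate 3 was the lowest of the 8 rats for 7 of the 14. None was called or had an unadjusted p below 0.05. Rab6b, the neuronal form of the Golgi Rab6, was at 887, 860, 849 and 844 CPM in saline rats and 859, 868, 863 and 874 CPM in METH rats, with a log2 fold change of 0.01 (SE 0.06), the smallest error of the family. Rab6a was at 443, 433, 451 and 483 CPM in saline rats and at 461, 446, 368 and 448 CPM in METH rats, and METH replicate 3 lay below the other 7 rats. Its log2 fold change was -0.07 (SE 0.08). Rab1a, which acts between the ER and the Golgi, averaged 206 ± 7.03 CPM with saline and 204 ± 14.6 CPM with METH (both SD, n = 4). The lowest log2 fold changes of the group were those of Rab2b (-0.21, standard error 0.14), Rab33a (-0.19, standard error 0.10) and Rab18, a Rab of the ER and lipid droplets (-0.14, standard error 0.09).

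Among the Rab genes of early endosomes, Rab22a, which acts in sorting from early endosomes, was the member whose groups did not overlap. It was at 77.1, 80.1, 73.9 and 78.9 CPM in saline rats and at 65.9, 71.7, 70.6 and 72.4 CPM in METH rats. The shift was small, a log2 fold change of -0.14 (SE 0.07), and Rab22a was not called (FDR = 0.470 by edgeR). The exact permutation test gave a two-sided p of 0.0286, a value that the lack of overlap fixes and that adds nothing to it. Rab22a kept a negative sign in every fit. Of the Rab5 paralogs, which drive the fusion of early endosomes, Rab5b ranged from 279 to 306 CPM among saline rats and from 281 to 306 CPM among METH rats, with a log2 fold change of -0.0045 (SE 0.07). Rab5c had a log2 fold change of 0.06 (SE 0.08) and Rab5a of -0.16 (SE 0.12), the latter with METH replicate 3 as the lowest rat. Rab21 had 0.01 and Rab31, a close relative of Rab22a, -0.06.

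The Rab genes of recycling and of transport to the cell surface had a median log2 fold change of 0.07 over 11 genes, with 7 positive and 4 negative signs. The negative signs made 36.4%, against 51.4% of all genes tested. The number of positive signs was 6 to 8 over the fits. For 5 of the 11, METH replicate 3 was the highest of the 8 rats. Rab11b, a Rab of recycling endosomes, was at 451, 433, 408 and 406 CPM in saline rats and 433, 440, 494 and 424 CPM in METH rats, with a log2 fold change of 0.08 (SE 0.07). Its paralog Rab11a also had 0.08 (SE 0.07). Rab15, a Rab of endocytic recycling in neurons, was at 505, 519, 456 and 488 CPM in saline rats and at 495, 533, 567 and 535 CPM in METH rats, where METH replicates 2 to 4 lay above all saline rats. Its log2 fold change was 0.11 (SE 0.07, FDR = 0.555 by edgeR). Rab4b had 0.16 and Rab4a 0.01, and of the pair that carries cargo from the Golgi to the surface Rab8a had 0.07 and Rab8b -0.20 (SE 0.23). Rab10, which acts in the same transport, had -0.11, and its lowest rat was METH replicate 3. Rab13, Rab14 and Rab35 had 0.19, -0.0015 and -0.02.

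The remaining 5 tested genes were Rab12, Rab23, Rab28, Rab40b and Rab40c. Rab40b and Rab40c, which carry a SOCS box and serve as adaptors of ubiquitin ligases, had log2 fold changes of -0.12 (SE 0.08) and 0.03 (SE 0.10). Rab23, a regulator of Hedgehog signaling, had 0.01 (SE 0.12), Rab28, a Rab of cilia, 0.13 (SE 0.08), and Rab12 0.15 (SE 0.10). None had an unadjusted p below 0.05.

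The median SD of log2 CPM among saline rats was 0.12 over the 51 Rab genes and 0.16 over all genes tested. The standard errors of the log2 fold changes ran from 0.06, for Rab6b, to 0.47, for Rab20. Members with few reads, such as Rab20 with 219 counts over all rats and Rab27b with 737, allow only large differences to be seen. METH replicate 3 was the lowest rat for 15 of 51 Rab genes (29.4%), against 22.3% of all genes tested, and the highest for 9 (17.6%), against 23.1%. Its part in the fold changes was measured by leaving it out, which moved Rab9a to -0.61 and the median of the family to 0.0099.

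Of the genes that regulate Rab proteins or bind them as effectors, 120 were listed, 95 had a row in the count data and 90 were tested. None was called by edgeR, DESeq2 or limma-voom. At an unadjusted p below 0.05 there were 7 by the quasi-likelihood test (7.78%, against 11.1% of all genes), 3 higher and 4 lower, and 7 or 8 by the other tests (2 without METH replicate 3, 4 without saline replicate 3 and 11 without METH replicate 1). Hps4, a subunit of the exchange factor for Rab32 and Rab38, was at 28.7, 23.7, 29.8 and 32.2 CPM in saline rats and at 33.4, 34.8, 46.4 and 37.9 CPM in METH rats. These groups did not overlap, and the log2 difference was 0.41 (SE 0.12, FDR = 0.229 by edgeR). Such separation was seen for 2 of the 90 genes (2.22%), Hps4 and Mical1, against 6.39% of all genes tested. Its partner subunit Hps1 had 0.10 (SE 0.13). Mical1, an actin-oxidizing enzyme that binds Rab proteins, was at 3.91 to 5.95 CPM in saline rats and at 2.64 to 3.62 CPM in METH rats without overlap, with a log2 fold change of -0.75 (SE 0.22, FDR = 0.219 by edgeR). The other 5 genes overlapped between the groups. Rabac1, the prenylated Rab acceptor, had a log2 fold change of 0.20, and Dennd6b, an exchange factor of the DENN family, had 0.30. Tbc1d10a, a GTPase-activating protein for Rab27a and Rab35, had -0.23. Tbc1d7, which carries the same kind of domain but is best known as a subunit of the tuberous sclerosis complex, had -0.41. Rufy3, a RUN domain protein of neurons, had -0.21. Of the 8 genes listed under GDP dissociation inhibitors and prenylation, Rabac1 among them, the inhibitor Gdi2 had a log2 fold change of -0.07. Chm of the same list, a Rab escort protein, had 0.02. The synaptic Rab3 effectors Rph3a and Rims1 had 0.11 and -0.18.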

How the data were processed

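Striatal poly(A) RNA of 8 rats was sequenced as paired-end reads. Per the labels and the study methods, adapters were removed (cutadapt 1.18), alignment to rn6 used STAR 2.7.0e, and featureCounts (Subread 1.6.4) gave the raw counts per gene that the authors deposited, 1 column per rat. Annotation, strand setting and handling of multi-mapping reads are not given in the sources used here, so members with near-identical copies are uncertain. Columns were matched to rats by group and number. No 2 rats of a group were alike within sampling noise (chi-square over its degrees of freedom, 10.1 to 27.6).

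Counts were analysed with edgeR 4.0.16 in R 4.3.3, with DESeq2 1.42.0 and limma 3.58.1 for alternatives: filterByExpr (minimum count 10), TMM factors (0.956 to 1.02), quasi-likelihood F-test and Benjamini-Hochberg adjustment over 12014 genes. A prior count of 2 was added for log2 CPM. The code was tested on simulated data. Standard errors are the absolute log2 fold change divided by the square root of F. Levels were not compared between genes, since transcript lengths of rn6 were not used. Members described rat by rat were those called, without overlap, at an unadjusted p below 0.05, with the most reads or with extreme fold changes, and paralogs of a called gene. The members and lists were chosen with earlier results of these data known. The alternatives were other tests, scalings, filters and thresholds, each rat left out, and a replicate block by rat number.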

Additional observations from a re-analysis of the deposited data

Results flagged for a closer look

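Each group of 4 rats was searched for a rat that stood apart, by its gap to the next rat as a share of the whole range. Of 26 groups checked (12 Rab genes and the share of counts held by the family), 3 exceeded Dixon's 95% critical value for 4 samples. Chance alone exceeds this value in about 1 of 20 independent groups. The 12 genes were chosen partly by these same values and share the same rats, so that rate cannot be set against 3 of 26. Rab26 stood apart in METH replicate 1, the lowest METH rat, with a gap of 0.904 of the range. Rab6a stood apart in METH replicate 3, the lowest METH rat, with 0.850. Rab9b stood apart in METH replicate 4, the highest METH rat, with 0.860.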

How the results depend on the processing

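No alternative was added after the values were seen. Rab9a was called with both edgeR tests, DESeq2, limma-voom, RLE size factors, total counts, every gene with at least 1 count and both other thresholds. With each rat left out, the median log2 fold change of the Rab genes ranged from -0.024 to 0.0099, and the number of Rab genes called, and called lower, ranged from 0 to 1, and of all genes called from 37, without saline replicate 2, to 70. The likelihood ratio test called 170 genes, DESeq2 186, and an FDR below 0.1 called 100, with Rab9a as the only Rab gene called in each. Same-numbered rats are different animals, and their deviations from the group means correlated at -0.20 to 0.04. With the replicate block 37 genes were called, 2 of them lower in METH rats, and 0 Rab genes were called. For Rab9a the FDR was 0.118 at a log2 fold change of -0.73. The block left 2 Rab genes at an unadjusted p below 0.05, against 4 without it, and changed no other Rab call. Scaling by total counts moved the median log2 fold change of the Rab genes to -0.040 and that of all genes to -0.041. Of the 51 Rab genes, 33 kept their sign in all fits, and the other 18 had absolute log2 fold changes of at most 0.12. By total counts the sign changed for Rab4a (-0.026), Rab6b (-0.025), Rab21 (-0.025), Rab23 (-0.022), Rab29 (-0.016) and Rab40c (-0.0079). Rab14 was at 0.0065 with limma-voom, 0.00011 with every gene that has a count and 0.0052 with the block, and Rab20 at -0.089 with limma-voom and -0.023 with the block. With a rat left out, the sign changed for Rab1a (-0.063 to 0.013), Rab2a (-0.11 to 0.0035), Rab4a (-0.039 to 0.084), Rab5b (-0.030 to 0.017), Rab14 (-0.083 to 0.070), Rab20 (-0.34 to 0.36), Rab21 (-0.048 to 0.045), Rab23 (-0.072 to 0.078), Rab29 (-0.027 to 0.081), Rab30 (-0.16 to 0.0050), Rab33b (-0.073 to 0.041), Rab34 (-0.080 to 0.061), Rab35 (-0.049 to 0.0022), Rab36 (-0.018 to 0.24), Rab39a (-0.015 to 0.20), Rab40c (-0.010 to 0.086) and Rab43 (-0.17 to 0.086). The causes were not tested.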
